A study of Mus musculus with 14 samples.

Results

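The 2 libraries described here are the H3K4me1 and the H3K27ac library of retinoic acid-treated cells, 2 of the 14 samples of the series, and they were chosen by mark and treatment. Both came from R1, a male mouse ESC line, grown for 4 days with 1 µM retinoic acid in 10% fetal calf serum and without LIF. The sources used here give no genetic change in these cells, and the labels separate the libraries only by the antibody. ESCs kept for 2 days without 2i, and XEN cells (extraembryonic endoderm) made in 9 days with 0.1 µM retinoic acid and Activin A, serve only for comparison, with 2 and 4 libraries. Retinoic acid without lineage selection gives a mixed culture, and these libraries are bulk. On autosomes a partial 5mC level therefore cannot be told apart as a share of cells or of alleles. The identity of the treated cells could not be checked against marker genes, since no transcript identifier was paired with a gene name.

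H3K4me1 is laid down by the MLL3 and MLL4 methyltransferases and marks enhancers whether or not they are in use, while H3K27ac is laid down by p300 and CBP and marks enhancers and promoters in use. Regions with H3K4me1 alone are called primed, and regions with both marks are called active. DNA methylation at CpG sites (5mC) is usually reduced where transcription factors hold an enhancer open. In ChIP-BS-seq, chromatin cut by micrococcal nuclease is pulled down with an antibody and its DNA is treated with bisulfite, so that 5mC is read on DNA enriched for the mark. The comparison asks whether the same stretch of DNA carries the same methylation when it is recovered through H3K4me1 and through H3K27ac.

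For each 200-bp bin the deposited files give the number of CpGs read as methylated and as unmethylated, without normalization, and 5mC is the methylated share of these counts. The H3K4me1 library held 47177841 CpG counts and the H3K27ac library 32305709. With 1 library per mark the spread between repeats is unknown, and each interval below is a 95% interval that covers counting error only. CpGs of 1 read and PCR copies are not independent, so these intervals are too narrow. On the mitochondrial genome, which is taken to be unmethylated, 3.23% of 1176 H3K4me1 counts (exact interval 2.30 to 4.41%) and 6.44% of 497 H3K27ac counts (4.45 to 8.97%) were read as methylated. The part of this in the differences below was not tested.

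Nearly every peak of high score of either mark lay over a peak of the other, and H3K4me1 peaks of low score mostly lay alone. Of 102600 H3K27ac peaks, 84626 overlapped an H3K4me1 peak by at least 1 bp (82.5%, exact interval 82.25 to 82.71%). Of 158989 H3K4me1 peaks, 81657 overlapped an H3K27ac peak (51.4%, 51.1 to 51.6%). The classes were therefore 77332 H3K4me1 peaks alone and 17974 H3K27ac peaks alone. Peaks of the first class match the name primed only by the lack of an H3K27ac call, in the library with fewer counts. Their state was not tested. Merged across the marks, the peaks formed 165921 regions, of which 42.6% held both marks, 46.6% H3K4me1 alone and 10.8% H3K27ac alone.

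Overlap followed the authors' peak score. Each list was divided by score into 10 classes of equal size. Width fell with the score too, from a median of 6774 bp in the highest H3K4me1 class to 1000 bp in the lowest. For H3K27ac peaks it fell from 7000 to 1000 bp, and score and width were not tested apart. In the class of H3K4me1 peaks with the highest scores 99.6% overlapped H3K27ac, in the fifth 50.3% did, and in the class with the lowest scores 14.6% did. The H3K27ac peaks went from 99.8% in the highest class through 86.8% in the fifth to 59.1% in the lowest. The marks differed little in the highest class and parted from there on, with 82.8 and 95.3% in the third class and 66.9 and 91.0% in the fourth.

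Peaks that overlapped were the wider ones for both marks. H3K4me1 peaks had a median width of 2630 bp where they overlapped H3K27ac (quartiles 1783 and 4188 bp) and 1263 bp where they did not (1000 and 1769 bp). For H3K27ac the medians were 1983 bp (quartiles 1273 and 3281 bp) with overlap and 1254 bp (1000 and 1595 bp) without. Of the H3K4me1 peaks alone 37.3% had the smallest width in the list, 1000 bp, against 6.47% of those with overlap. Above 10 kb, 3389 of 3390 H3K4me1 peaks and 2716 of 2731 H3K27ac peaks overlapped the other mark. At a width of 1000 bp the H3K27ac peaks still overlapped in 64.45% of cases, whereas H3K4me1 peaks did so in 15.5%.

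**Figure D1:**
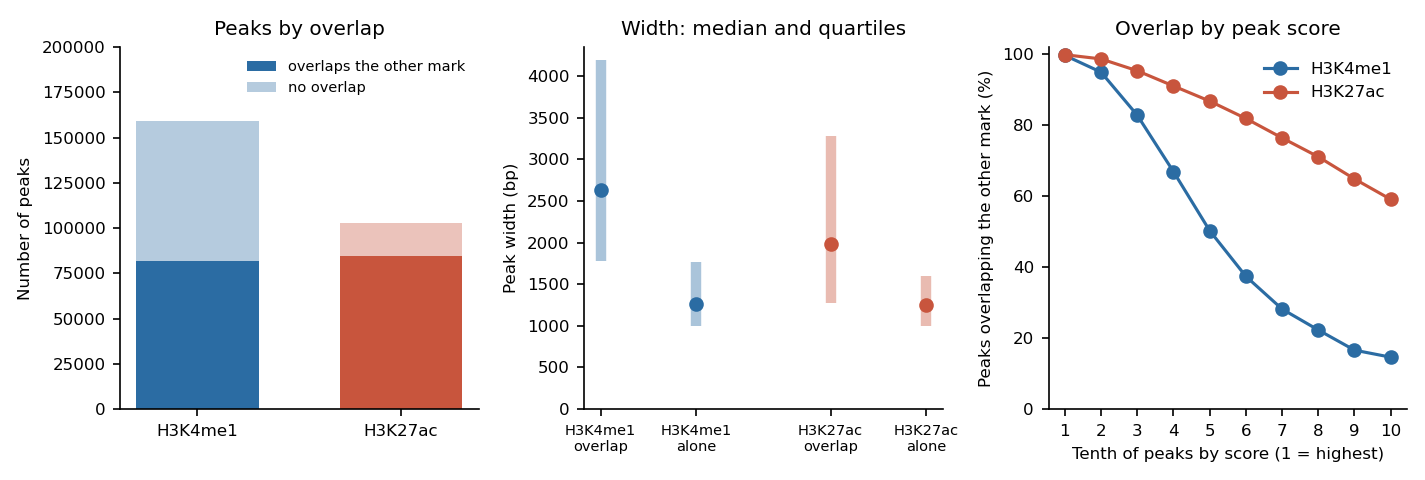
Peaks of H3K4me1 (blue) and H3K27ac (red) in retinoic acid-treated cells. The left panel gives the number of peaks with (dark) and without (pale) overlap, the middle panel the median width in bp (point) with its quartiles (bar), and the right panel the percentage of peaks that overlap the other mark in each of 10 equal classes of the peak list by score. Overlap falls from 99.6 to 14.6% for H3K4me1 and from 99.8 to 59.1% for H3K27ac.

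H3K27ac tended to lie inside H3K4me1 and not the reverse. Of all H3K27ac peaks 42.5% lay wholly within H3K4me1 peaks, while 6.55% of H3K4me1 peaks lay wholly within H3K27ac peaks. By length, H3K4me1 peaks covered 413.9 Mb and H3K27ac peaks 279.0 Mb, with 220.9 Mb under both in 95613 intervals. The shared bases made up 79.2% of the H3K27ac length and 53.4% of the H3K4me1 length. Most overlaps were between a peak and 1 other, for 86.6% of the overlapping H3K4me1 peaks and 88.4% of the H3K27ac peaks, and the most peaks met by a single peak were 12 and 13.

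The widest peak of the 2 lists was an H3K27ac domain on chromosome 8 from 11194072 to 11428331 (234260 bp), first by score in its list and 97.85% covered by H3K4me1 peaks. Over its whole length 62.8% of 47080 H3K4me1 counts and 48.6% of 30453 H3K27ac counts were methylated. The next H3K27ac domain lay on chromosome 17 from 68025980 to 68177862, with 60.7% 5mC in H3K4me1 and 50.5% in H3K27ac. It was followed by a domain on chromosome 1 from 191558816 to 191708959, with 63.7 and 60.3%. Among H3K4me1 peaks the widest lay on chromosome 7 from 119878917 to 120004511, with 60.6% 5mC in H3K4me1 and 50.2% in H3K27ac. After it came chromosome 1 from 155061567 to 155178636, with 59.5 and 55.1%, and chromosome 17 from 68047304 to 68159585, with 63.6 and 56.0%. The last of these overlaps the chromosome 17 domain of H3K27ac, so the list holds 5 separate loci. 5mC was higher in the H3K4me1 library at all 5, and none was an unmethylated domain. In ESCs the same 5 loci were lower in the H3K4me1 library, between 30.2 and 44.6%. In the H3K27ac library 4 of them were lower in ESCs as well, and the chromosome 17 locus was higher, at 63.1% over the H3K4me1 peak and 53.3% over the H3K27ac domain. Genes at these positions are not named, as no annotation of the files' build (mm9) was used.

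The libraries distributed their counts over the classes in different ways. Bins under peaks of both marks took 57.7% of the H3K4me1 counts, at 51.6% 5mC, and 52.6% of the H3K27ac counts, at 31.8%. In bins under H3K4me1 alone, which took 20.4% of the H3K4me1 counts and 6.67% of the H3K27ac counts, 5mC was nearly equal, 56.25 and 55.7%. Bins under H3K27ac alone took 1.959% of the H3K4me1 counts, at 59.95% 5mC, and 14.9% of the H3K27ac counts, at 20.4%. In bins under neither mark the values were 62.1 and 58.8%.

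The bins under H3K27ac alone were of 2 kinds. In H3K27ac peaks that met no H3K4me1 peak, the 152234 bins held 4.86 H3K27ac counts each, and 69.3% of these counts were methylated (71.3% in the H3K4me1 library). In stretches of overlapping H3K27ac peaks that the H3K4me1 peaks left uncovered, the 144311 bins held 28.2 H3K27ac counts each and 11.55% were methylated. The H3K4me1 library had 3.72 counts per bin in those stretches, and 51.7% 5mC. The low 5mC of acetylated DNA without an H3K4me1 call was thus found in parts of larger shared regions, and lone H3K27ac peaks were more methylated than bins under neither mark. For bins under H3K4me1 alone the same division gave 52.8% 5mC in lone peaks and 63.0% in uncovered stretches of overlapping peaks, with 9.65 and 8.89 H3K4me1 counts per bin.

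Peak by peak the classes kept this order. Lone H3K27ac peaks with at least 30 counts, 9232 of 17974, had a median 5mC of 75.0% in the H3K27ac library (quartiles 67.8 and 80.3%). Overlapping H3K27ac peaks had a median of 54.5% (32.65 and 67.2%), and 18.2% of them were under 20% 5mC, against 1.83% of the lone ones. H3K4me1 peaks with and without overlap were almost alike, with medians of 57.9 and 58.0% in the H3K4me1 library. Their density was not alike, at a median of 80.7 H3K4me1 counts per kb with overlap and 43.4 without.

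Around the center of H3K27ac peaks both libraries dipped in 5mC, and the H3K27ac library dipped further. Counts were pooled over all 102600 peaks at each distance from the middle of the peak. At the center 47.4% of the H3K4me1 counts and 24.5% of the H3K27ac counts were methylated, a difference of 22.9 points (interval 22.8 to 22.9). At 1 kb the values were 55.1 and 36.4%, and the difference was 18.7 points. At 2 kb they were 59.5 and 45.6%, 13.9 points apart (13.8 to 14.0). Farther out the H3K27ac line fell again, to 39.4% at 5 kb, and the difference rose to 17.6 points. In ESCs, at the same positions, the pooled difference was 14.7 points at the center and 5.56 at 2 kb.

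Coverage fell faster than 5mC rose. The H3K27ac library had 17.3 counts per bin at the center and 4.74 at 2 kb, and the H3K4me1 library had 19.8 and 7.90. The flanks of wide peaks and neighbouring peaks enter the far end of the profile. With only the 49299 peaks whose center lay more than 5 kb from any other, the difference was 24.5 points at the center and 19.8 at 2 kb.

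The pooled difference varied with the score of the peak. The H3K27ac peaks were divided by score into 4 classes of equal size. In the highest class the difference at the center was 28.0 points (27.8 to 28.1), with 14.1% 5mC in H3K27ac. In the following classes it was 17.4, 5.95 and 0.252 points (-0.0598 to 0.563 in the last), with 30.4, 45.25 and 53.7% 5mC in H3K27ac. H3K4me1 5mC moved far less over the classes, from 42.1 to 54.0%. At H3K27ac peaks without an H3K4me1 peak the difference at the center was 4.54 points (4.06 to 5.02), at 69.3% 5mC in H3K4me1, and at those with one it was 24.8 points. Lone H3K27ac peaks also had lower scores, with a median of 10.8 against 23.1, and the parts of score and H3K4me1 in this were not tested apart.

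When each bin was compared with itself, the difference at the center was 3.31 points (3.22 to 3.41). Here the difference was taken within each 200-bp bin that had counts in both libraries and then averaged with Mantel-Haenszel weights, so that a bin counts equally for both marks. This weighted difference lay between 3.13 and 3.48 points at every step from the center to 5 kb, while the pooled difference ran from 22.9 to 13.9. In shared bins the odds ratio was 1.34 within 250 bp of the center and 1.24 beyond 4 kb. Gaps over 20 points with H3K4me1 higher made up 5.56 and 4.04% of bins. The median 5mC level of these bins rose from 24.5 to 40.8%, and level and distance were not tested apart. Their median difference did not fall steadily, with 3.39 points within 250 bp, 2.89 between 500 and 1000 bp, 3.15 between 2000 and 4000 bp and 2.77 beyond. In steps of 200 bp, such gaps made up 5.71% of covered bins at the center, 4.23% at 800 bp, 5.72% at 2400 bp and 5.01% at 5 kb. At the center the within-bin value was 14.5% of the pooled one. The remainder lay between bins: the H3K27ac library had a larger share of its counts in weakly methylated bins than the H3K4me1 library did.

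The same was seen in the overlap classes. In bins under both marks the pooled difference of 19.8 points was 3.28 points within bins (3.25 to 3.31). Under H3K27ac alone 39.5 points became 2.74 (2.65 to 2.82). Under H3K4me1 alone the pooled difference was 0.594 points and that within bins 3.39 (3.32 to 3.45). Bins under neither mark differed by 5.02 points within bins (4.98 to 5.06), more than any class with a peak. A within-bin difference of a few points was thus also present outside the peaks of both marks. In ESCs, in the bins under both marks of the treated cells, it was -0.423 points. The direction of so small a value is not read, since on the mitochondrial genome 0.383% of the ESC H3K4me1 counts and 3.55% of the ESC H3K27ac counts were methylated.

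**Figure D2:**
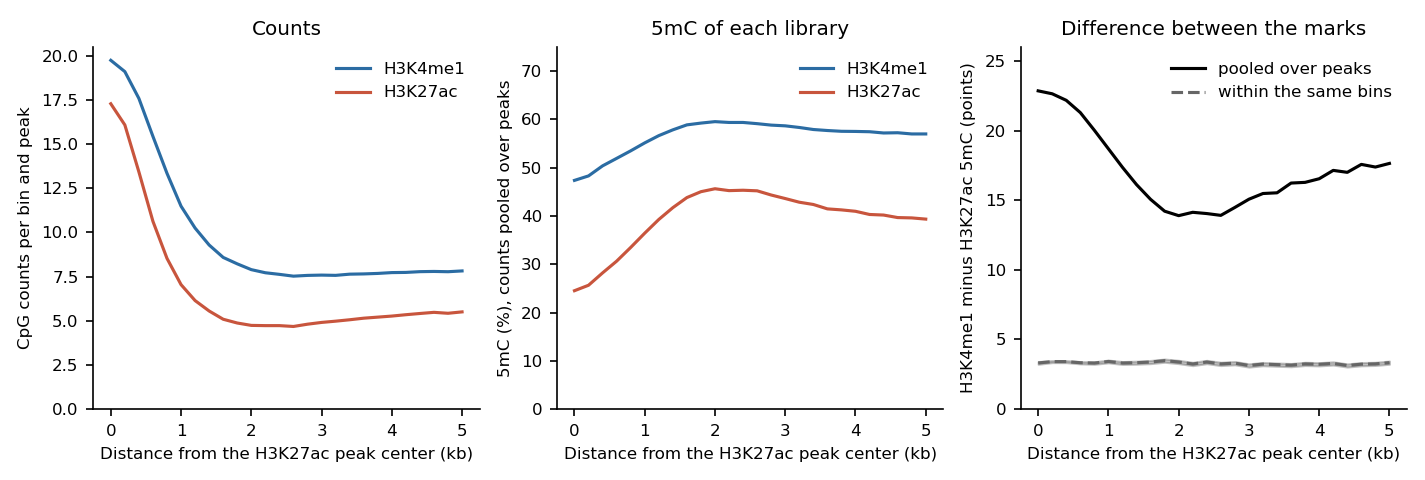
Profiles by distance (kb) from the center of all 102600 H3K27ac peaks. CpG counts per bin and peak (left) and pooled 5mC in percent (middle) are given for H3K4me1 (blue) and H3K27ac (red), and the right panel gives the difference between the marks in percentage points, pooled over peaks (black) and within the same bins (dashed, band for the 95% interval). The pooled difference falls from 22.9 at the center to 13.9 at 2 kb, and the within-bin difference stays between 3.13 and 3.48.

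The bins that allow a comparison 1 by 1 were those under both marks with at least 30 CpG counts in both libraries, 95406 in all and called shared bins here. A gap of more than 20 percentage points with H3K4me1 higher was found in 4429 shared bins, 4.64% of all tested, and with H3K27ac higher in 576, or 0.604%. By Fisher's exact test, adjusted over all shared bins by the Benjamini-Hochberg method, 764 bins (0.801%) had an adjusted p under 0.05 with H3K4me1 higher and 12 (0.0126%) with H3K27ac higher. The test compares these 2 libraries and not the marks in general. These numbers depend on the counts required: such gaps made up 6.13 and 1.55% of bins at 20 counts and 2.97 and 0.103% at 60. After thinning to 30 counts the test called 3 and 0 bins.

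Libraries of XEN cells give a measure of how far 2 libraries of 1 mark differ, since XEN cells had 2 per mark. All libraries were thinned to 30 counts per bin for this. In 17551 shared bins with enough counts in both XEN libraries labelled H3K4me1, 2.71% differed by over 20 points one way and 3.42% the other, and the median difference was 0. In the same bins the marks of treated cells differed by over 20 points in 6.87% with H3K4me1 higher and 1.19% with H3K27ac higher, with a median of 3.33 points. In the 61588 bins of the XEN libraries labelled H3K27ac, repeats gave 4.155 and 4.01%, and the marks of treated cells gave 8.10 and 1.85%. The repeats labelled H3K27ac were nearly even in direction and those labelled H3K4me1 less so, with 475 bins against 601. The marks of treated cells had 4986 against 1140 in the bins of the first and 1206 against 209 in those of the second. The XEN repeats are of other cells and were made apart from these libraries, so they are a yardstick and not the error of this comparison. For XEN cells the deposited file names exchange the marks given by the labels, and the labels were followed here.

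The difference between the marks was largest in bins of low to middle 5mC and ended in highly methylated bins. Shared bins were placed by their total level, the mean of both libraries. Below 10% the median difference was 1.10 points (1.04 to 1.17) over 24551 bins. Between 20 and 30% it reached 6.42 points (6.17 to 6.68), with median levels of 28.1% in H3K4me1 and 21.5% in H3K27ac. It then declined, to 5.57 points between 40 and 50%, 2.96 between 60 and 70% and 1.49 between 70 and 80%. Between 80 and 90% it was -0.385 points (-0.699 to 0) over 3017 bins.

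A difference in points is limited near 0 and 100%, so the odds ratio (the odds of a methylated count in H3K4me1 over those in H3K27ac, combined over the bins of a class) is given as well. From 10% up it fell with the level, from 1.56 between 10 and 20% through 1.42 between 20 and 30% and 1.20 between 50 and 60% to 0.920 above 90%. Below 10% it was 1.58, but the median levels there, 4.08% in H3K4me1 and 2.44% in H3K27ac, did not exceed the upper bounds read on the mitochondrial genome (4.41 and 8.97%), so nothing is read from that class. H3K4me1 was the higher library in 76.6% of bins between 10 and 20% and in 48.1% between 80 and 90%.

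Gaps over 20 points with H3K4me1 higher were most frequent in the middle of the range, where counting error in points is also widest. They made up 9.34% of the bins between 30 and 40% and 1.06% between 80 and 90%. The part of counting error in these shares was not tested. With H3K27ac higher the largest share was 1.58%, between 70 and 80%. Below 10% a gap of this size is not possible, and none was found in 24551 bins.

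In ESCs, over their own bins under both marks and by the same classes of level, the median difference was at most 2.46 points, between 10 and 20%. Above 40% it was below 0, at -2.58 points between 50 and 60%, where treated cells had 4.39. The direction of these ESC values is not read. On the mitochondrial genome 0.383% of the ESC H3K4me1 counts and 3.55% of the ESC H3K27ac counts were methylated. The bins are not the same in the cell states, as 29209 of the 95406 shared bins of treated cells had enough counts in both ESC libraries. With 1 library in each arm the cell states were not tested against each other.

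**Figure D3:**
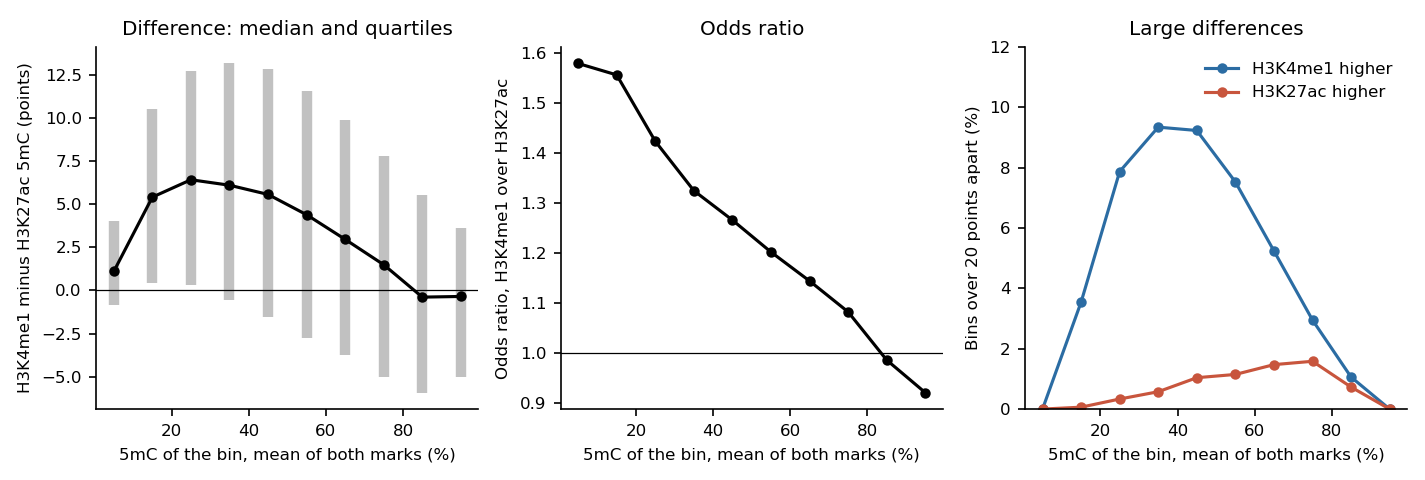
Shared bins of retinoic acid-treated cells by 5mC level (mean of both marks, in percent, classes of 10 points). From left to right, the difference H3K4me1 minus H3K27ac in percentage points (median and quartiles), the odds ratio on a linear axis, and the percentage of bins more than 20 points apart with H3K4me1 (blue) or H3K27ac (red) higher. The median difference is highest, at 6.42 points, between 20 and 30%, while the odds ratio falls from 1.56 between 10 and 20% to 0.920 above 90%. Below 10% it is 1.58, at levels no higher than the upper bounds on the mitochondrial genome.

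The balance of the marks in a bin was measured as the ratio of H3K27ac to H3K4me1 counts, each scaled to its library total. Bins with relatively more H3K27ac were less methylated in both libraries. The shared bins were divided by this ratio into 10 classes of equal size. In the lowest class (ratio below 0.577) the median levels were 52.1% in H3K4me1 and 47.1% in H3K27ac, and in the highest (above 2.89) they were 3.03 and 1.84%. The median difference was 3.45 points (3.19 to 3.66) in the lowest class, between 3.01 and 3.79 in the next 8, and 0.908 points (0.762 to 1.02) in the highest. The last value was 0 with a minimum of 20 counts, 1.56 with 60 and 0 after thinning to 30 counts. The counts behind it were 42 in H3K4me1 and 145 in H3K27ac at the median.

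Level and ratio moved together, so the ratio was also read within classes of level. Between 40 and 60% 5mC the median difference was 4.65 points (4.12 to 5.20) in the lowest class of the ratio, 5.31 in the fifth and 12.55 (8.95 to 17.7) in the highest, which held 80 bins of this class. Between 10 and 40% it was 5.04 points in the lowest class and 8.77 (8.15 to 9.21) in the highest. Between 60 and 80% it was 1.68 points in the lowest and 4.06 (2.365 to 6.50) in the ninth. The most acetylated bins were thus mostly nearly unmethylated, and among partly methylated ones the gap was larger where H3K27ac was relatively more abundant. Of the 9540 bins in the highest class 8018 lay below 10%, from which nothing is read. The ratio and the 5mC of a bin come from the same counts, and these values carry no test.

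**Figure D4:**
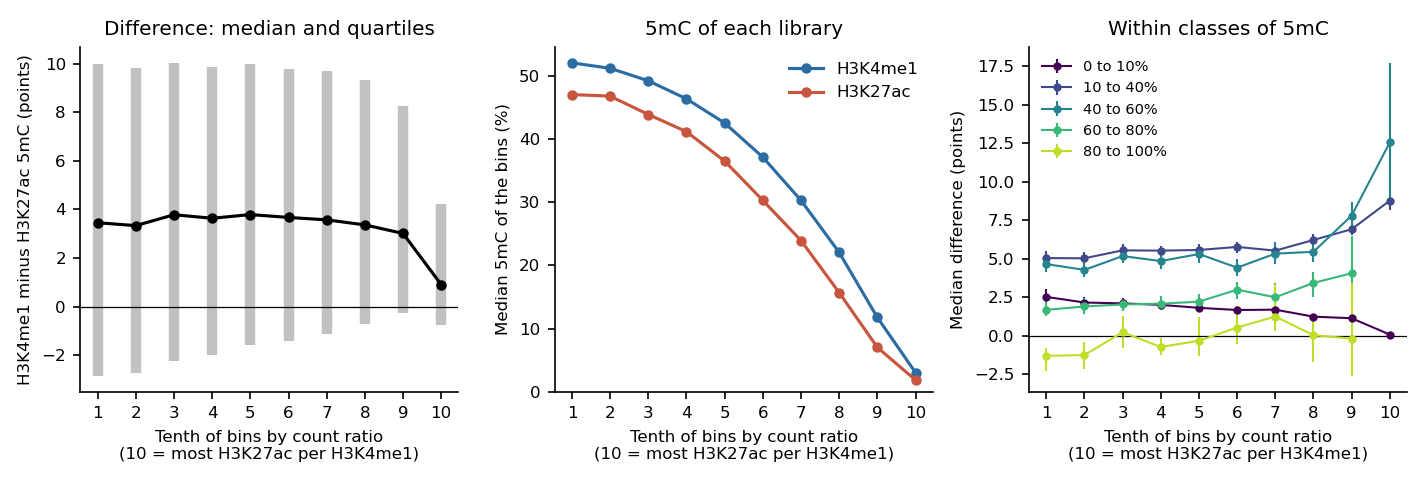
Shared bins in 10 equal classes by the ratio of H3K27ac to H3K4me1 counts (10 is the highest ratio). The left panel gives the difference H3K4me1 minus H3K27ac in percentage points (median and quartiles), the middle panel the median 5mC in percent of each library, and the right panel the median difference within 5 classes of 5mC (bars for the 95% interval, classes with few bins left out). Between 40 and 60% 5mC the difference goes from 4.65 to 12.55 points.

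Bins with a gap over 20 points lay at much the same places as shared bins in general. The 4429 bins with H3K4me1 higher lay at a median of 796 bp from the nearest H3K27ac center, against 937 bp for all shared bins, and 36.7% of them lay within 500 bp, against 32.1%. The 576 bins with H3K27ac higher lay at 1094 bp, and 30.2% within 500 bp. The mean of both marks had a median of 40.9% 5mC in the first set and 59.1% in the second, against 30.3% over all shared bins. In the first set the H3K4me1 median was 53.8% and the H3K27ac median 28.0%, and in the second they were 46.4 and 71.7%, an order that the choice of bins fixes. The second set had fewer H3K27ac counts, a median of 36 against 42 in the first and 50 over all shared bins.

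Large gaps were also counted in the neighbours of bins with a large gap. Of shared bins 200 bp from one with H3K4me1 higher 11.1% also passed 20 points in that direction, against 4.64% of all shared bins, with a median difference of 7.50 points, against 3.43 points beside any shared bin. At 1 kb the share was 7.86% and the median 4.19 points. All shared bins include those below 10% 5mC, where no such gap is possible, while bins with this gap had a median level of 40.9%. Of all shared bins between 40 and 50% 5mC, 9.23% passed 20 points with H3K4me1 higher. Neighbours were not matched for level in either direction, so nothing is read from their excess over all shared bins. Where H3K27ac was higher, 2.15% of 279 neighbours at 200 bp passed 20 points in that direction, against 0.604% of all shared bins, and 0 of 242 did at 400 bp, 1.21% of 165 at 1 kb and 0 of 99 at 2 kb. The median difference at 200 bp was 2.83 points, with H3K4me1 higher. Neighbouring bins can hold CpGs of the same read, and no test was made.

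By chromosome the share of shared bins with H3K4me1 higher by over 20 points ranged from 3.87% (chromosome 4) to 5.51% (chromosome 14) on autosomes, and was 7.21% of 1026 bins on X (exact interval 5.71 to 8.97%). The X bins had a lower median level, 21.1%, than any autosome. R1 cells are male and carry 1 X. On all 19 autosomes and X the median difference was between 2.71 and 3.67 points.

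The intervals under peaks of both marks are called enhancers below, although without annotation they include promoters. Of 95613 such intervals, 35260 had at least 100 CpG counts in both libraries and were tested on their summed counts. By Fisher's exact test, adjusted in the same way over these enhancers, 21220 had higher 5mC in H3K4me1, or 60.2%, and 217 in H3K27ac, or 0.615%. Over all tested enhancers the medians were 47.0% 5mC in H3K4me1 and 32.9% in H3K27ac, and the median of the differences was 10.5 points. Summed counts join bins of unequal level, and compared bin by bin, with the bin as the stratum of a Cochran-Mantel-Haenszel test, 3024 enhancers (8.58%) were higher in H3K4me1 and 47 (0.133%) in H3K27ac. Within bins the median difference was 2.93 points (2.88 to 2.99), and H3K4me1 was higher in 77.0%. Of the 7657 enhancers with a pooled difference over 20 points, 63 had one over 20 points within bins.

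The same tests between XEN repeats of 1 label called few enhancers. In 16026 of these enhancers 0.655 and 0.930% were called in the directions between the repeats labelled H3K4me1, against 72.0% with H3K4me1 higher and 0.668% with H3K27ac higher between the marks of treated cells. Within bins the repeats gave 1 and 3 calls and the marks 2435 and 24. The marks had more counts there, with medians of 601 and 514 against 193 and 230 for the XEN repeats, and for that reason alone more calls can be made.

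The pooled gap did not follow width in 1 direction. Enhancers under 1 kb had median levels of 19.85% in H3K4me1 and 4.24% in H3K27ac, with a median difference of 14.0 points, and 82.9% of 1725 were called with H3K4me1 higher. Between 1 and 2 kb the levels were 28.7 and 7.80%, the difference 15.3 points and the called share 77.6%. Between 2 and 5 kb the levels were 52.3 and 43.9%, the difference 8.49 points and the called share 48.8%. Between 5 and 10 kb the difference was 8.65 points and the called share 58.9%, and above 10 kb 10.5 points and 80.8%. The widest enhancers had the most counts, a median of 2048 in H3K4me1 and 1188 in H3K27ac.

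Individual enhancers were picked by the largest pooled difference among those called, with at least 300 counts in both libraries and at least 3 shared bins that all differed in 1 direction. By this rule 1320 qualified with H3K4me1 higher and 5 with H3K27ac higher, and the first 5 of each are given. Values are 5mC over the whole interval with exact intervals, and adjusted p-values are from Fisher's exact test across all enhancers. The difference itself was used to pick them and is a description.

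The first of those with H3K4me1 higher, on chromosome 4 from 102887732 to 102889515, had 61.1% 5mC of 337 H3K4me1 counts (55.7 to 66.4%) and 13.1% of 686 H3K27ac counts (10.7 to 15.9%), with an adjusted p of 1.75e-53. The pooled gap was 48.0 points, and its 3 shared bins hold only part of these counts. The first bin had 8.16% of 49 H3K4me1 counts and 1.52% of 132 H3K27ac counts, the second 65% of 60 and 52.4% of 42, and the third 59.1% of 93 and 45.9% of 37. Most of the H3K27ac counts of these bins thus lay in the unmethylated bin and most of the H3K4me1 counts in the methylated ones. Within bins the interval differed by 10.6 points (3.70 to 17.6).

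On chromosome 13 from 112599804 to 112602025 the values were 60.1% of 587 counts and 14.4% of 591, with an adjusted p of 3.71e-60. Within bins the difference was 5.86 points, and its interval reached below 0 (-0.0308 to 11.7). The first shared bin of this enhancer had 41 H3K4me1 counts at 4.88% and 221 H3K27ac counts at 0.453%, and the last had 128 at 79.7% and 34 at 61.8%. A border between unmethylated and methylated DNA thus ran through the interval, and the marks lay on either side of it in unequal amounts.

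The enhancer on chromosome 7 from 118264470 to 118266074 had 51.7% of 393 H3K4me1 counts and 7.04% of 1179 H3K27ac counts methylated, with an adjusted p of 1.25e-74. It kept the largest within-bin difference of the 5, 10.8 points (4.16 to 17.4). Its first shared bin had 64.1% 5mC of 128 H3K4me1 counts and 39.3% of 56 H3K27ac counts, the second 23.9% of 46 and 22.9% of 48, and the third 30% of 30 and 8.82% of 136.

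On chromosome 8 from 122093974 to 122098401 the values were 56.4% of 832 counts and 12.4% of 766, with an adjusted p of 1.24e-77 and 5.25 points within bins (0.473 to 10.0). All 3 shared bins were low in both libraries, between 2.50 and 13.6% in H3K4me1 and between 0 and 13.3% in H3K27ac. The other bins of the interval had fewer than 30 counts in 1 or both libraries. On chromosome 10 from 24429939 to 24431611 the values were 49.5% of 551 counts and 5.93% of 894, with an adjusted p of 4.51e-81 and 6.54 points within bins (0.953 to 12.1).

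In ESCs the pooled values of the 5 enhancers were 16.9 to 37.7% in H3K4me1 and 2.73 to 20.7% in H3K27ac. Within bins the ESC differences ran from -2.30 to 8.22 points, and the interval held 0 at all but the enhancer on chromosome 13 (2.25 to 14.2). The XEN libraries are not compared between marks here, since labels and file names disagree on which is which.

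With H3K27ac higher only 5 enhancers met the rule, and they are not the ones with the largest gaps of this direction. The 217 called had a median difference of -11.5 points (quartiles -13.7 and -9.47), and 5 of all tested differed by over 20 points. Of the 5 that met the rule, the first, on chromosome 1 from 62812757 to 62815573, had 54.6% 5mC of 570 H3K4me1 counts (50.4 to 58.7%) and 65.3% of 334 H3K27ac counts (59.9 to 70.4%), with an adjusted p of 0.0033. Within bins its difference was -11.2 points (-17.6 to -4.84), as large as the pooled -10.7. In ESCs it was nearly unmethylated, at 8.22% of 888 H3K4me1 counts and 3.07% of 814 H3K27ac counts.

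On chromosome 16 from 95936974 to 95939514 the values were 66.4% of 381 counts and 75.8% of 389, with an adjusted p of 0.00791. On chromosome 7 from 80622030 to 80628519 they were 66.2% of 1043 and 72.1% of 416, with an adjusted p of 0.0491 and a within-bin interval that held 0 (-7.79 to 1.74). On chromosome 14 from 20618040 to 20627792 they were 65.2% of 1543 and 71.0% of 777, with an adjusted p of 0.00924. On chromosome 11 from 97034513 to 97048448 they were 49.0% of 1787 and 54.3% of 808, with an adjusted p of 0.0218. The pooled differences of the 5 ran from -10.7 to -5.37 points and those within bins from -11.2 to -3.03, the smallest being that on chromosome 7, at -5.96 pooled and -3.03 within bins.

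**Figure D5:**
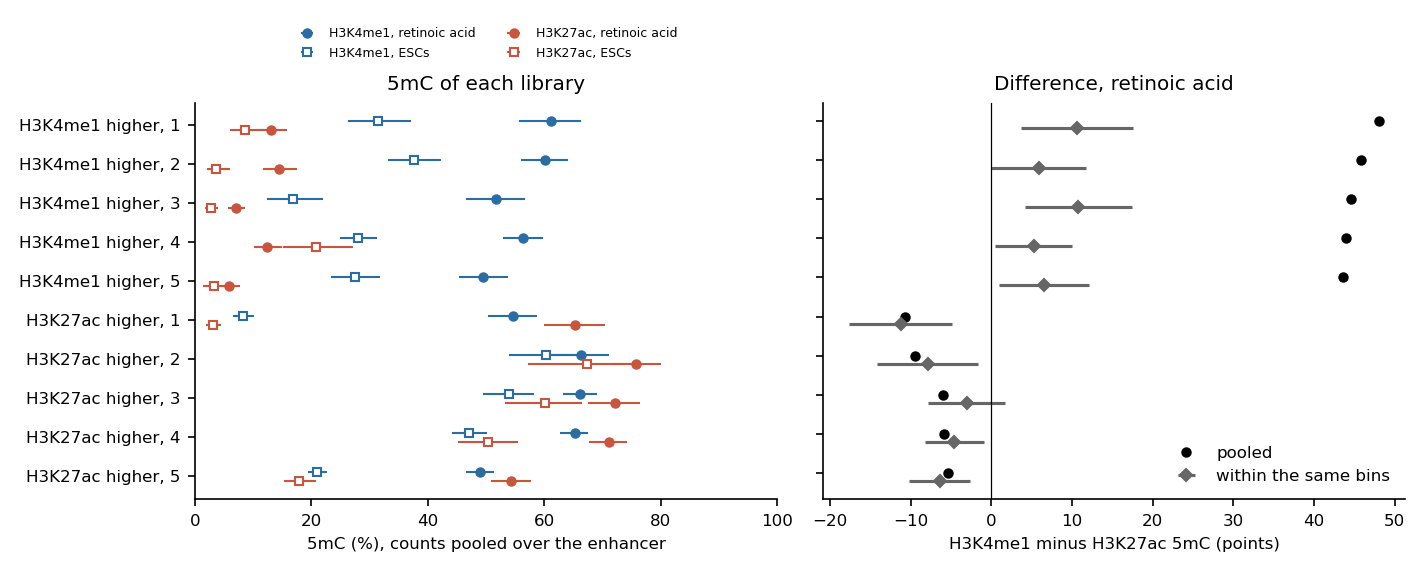
The 5 enhancers named in each direction, which are those with the largest pooled difference among the ones that met the rule for counts and shared bins. The left panel gives 5mC in percent over the whole interval in H3K4me1 (blue) and H3K27ac (red) libraries of retinoic acid-treated cells (filled circles) and ESCs (open squares), with exact 95% intervals, and the right panel the difference H3K4me1 minus H3K27ac in treated cells in percentage points, pooled (black) and within the same bins (grey, with 95% intervals). With H3K4me1 higher, pooled differences of 43.6 to 48.0 points stand beside 5.25 to 10.8 within bins.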

How the data were processed

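ChIP-BS-seq libraries of H3K4me1 and H3K27ac from retinoic acid-treated R1 cells were compared, 1 per mark. Per the study's methods and the submitters' processing notes, Bismark and Bowtie served for alignment to mm9 (versions and roles not given in the sources used here) and reads whose CpGs disagreed were dropped. The deposited bin files hold raw counts, a methylated and an unmethylated one for every 200 bp. HOMER was run on each mark without its local and clonal filters, and in the authors' peak lists a score, used only to rank peaks within a list, and a width accompany each peak. Depth was 47177841 and 32305709 CpG counts. The study repeated each experiment, and whether a file holds 1 repeat or several was not established.

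5mC was methylated over all counts. Shared bins overlapped peaks of both marks by at least 1 bp and had at least 30 counts in both libraries, which leaves each bin a wide counting error. Bins near transcription start sites were not removed. Fisher's exact tests (two-sided, Benjamini-Hochberg) were run per bin, and per enhancer with at least 100 counts in both. Intervals are Clopper-Pearson for shares, Newcombe for pooled differences, order statistics for medians and Greenland-Robins within bins. The tests were tested on simulated data. Members, classes and the rule for named enhancers (stated in the text, with the 3 widest peaks of each mark) were chosen with earlier results of these data known. The marker list could not be read, since the expected counts that the authors deposited for single cells carry transcript identifiers without names, and they were not used. Bins under 4 counts are missing from the XEN files. Input and H3K36me samples were not analysed here. Alternatives were other coverage minimums, thresholds, overlaps and peak sets, thinning and, added after seeing the data, comparison within bins. Software was numba 0.67.0, scipy 1.17.1, numpy 2.4.6, matplotlib 3.10.9 and pandas 2.3.3 under Python 3.11.15.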

Additional observations from a re-analysis of the deposited data

Results flagged for a closer look

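At 2 of the enhancers with H3K27ac higher in treated cells the pooled difference had the opposite sign in ESCs, each on 1 library per mark, so the change of sign was not tested. The enhancer on chromosome 1 from 62812757 to 62815573 was 5.15 points higher in H3K4me1 in ESCs and -10.7 points, with H3K27ac higher, after retinoic acid. Within the same bins its ESC difference was 2.49 points (0.509 to 4.47). The enhancer on chromosome 11 from 97034513 to 97048448 was 3.07 points higher in H3K4me1 in ESCs (-0.155 to 6.08, an interval that held 0) and -5.37 points after retinoic acid. Within the same bins its ESC difference was -3.35 points (-6.75 to 0.0622), so the sign did not turn there.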

How the results depend on the processing

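Of 57 alternatives, 19 left a result within its limits, 37 moved it and 1 reversed it, the ESC difference at the chromosome 11 enhancer, at -3.35 points within the same bins. Comparison within the same bins, added after seeing the data, moved the results to 3024 and 47 enhancers with H3K4me1 and H3K27ac higher, 3.31 points at the H3K27ac center and 3.38 at 2 kb. Gaps over 20 points (H3K4me1 higher, then H3K27ac higher) numbered 10476 and 2647 of 170877 bins at 20 counts (6.13 and 1.55%), 719 and 25 of 24238 at 60 (2.97 and 0.103%), 6810 and 1552 of 95406 after thinning to 30 counts (7.14 and 1.63%), and 610 and 54 with a gap over 30 points. After thinning, Fisher's exact test called 3 and 0 bins. With 300 counts 10707 and 36 of 12661 enhancers were called (84.6 and 0.284%), against 60.2 and 0.615% in the main setting, and with 30 counts 474 of 70616 had H3K27ac higher (0.671%). The share of H3K27ac peaks with overlap was 77.8% when 50% of the peak had to be covered, 48.8% for 50% of both peaks and 87.5% for the upper 50% of the lists by score. At the center the pooled difference was 24.5 points for isolated peaks, 24.8 for peaks with H3K4me1, 13.8 in bins of at least 30 counts and 26.4 for the upper 50%, and at 2 kb it was 19.8, 16.5, 13.4 and 18.4. Between 40 and 60% 5mC, where the main median difference was 5 points, it was 5.50 at 60 counts, 3.33 after thinning and 4.78 with the level from pooled counts. In the 10% of bins with the highest count ratio it was 0 at 20 counts, 1.56 at 60 and 0 after thinning, and in the 10% with the lowest 2.94 and 3.98 at 20 and 60. Causes were not tested, except that fewer counts widen and more counts narrow the counting error of a bin. No paired analysis was possible because each mark of the retinoic acid-treated cells had 1 library. Depth of H3K27ac limits single bins, with a median of 50 counts.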
